A study of Drosophila melanogaster with 88 samples.

Results

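The genes described here encode the proteins of the mitochondrial ribosome of Drosophila melanogaster. They were taken by name, as every gene feature of the male count table whose symbol begins with mRpL or mRpS followed by a digit, and were then followed by gene identifier into the female tables. The rule found 73 genes of 17830 gene features, 47 named for the large subunit (mRpL) and 26 for the small subunit (mRpS). Large and small subunit genes are told apart here by symbol alone, and the place of each protein in the ribosome was not checked. Of these, 71 were also among the 17421 genes of each female table, where mRpS5 and mRpS34 were not found. mRpL53 was at 0 in all 88 libraries, so 72 members could be tested in male heads and 70 in female heads and guts. The rule itself uses symbols and no measured value.

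Mitochondria translate the few proteins encoded by their own DNA, all of them subunits of the oxidative phosphorylation (OXPHOS) complexes, on a ribosome of their own. The RNA of that ribosome is transcribed inside the mitochondrion, but all its proteins are encoded in the nucleus, made in the cytosol and imported. Some of them descend from bacterial ribosomal proteins, and others are found in mitochondrial ribosomes and not in bacterial ones.

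The study measured RNA by 3′ mRNA sequencing of whole fly heads and guts in a model of amyotrophic lateral sclerosis, in which VAP, a membrane protein of the endoplasmic reticulum that tethers it to other organelles, carries the P58S change found in a familial form of the disease. Genotypes labelled VAPWT and VAPP58S (here WT and P58S) were compared in male heads at days 5, 15 and 20, and in female heads and female guts at days 5 and 20. A second set of male heads, at days 5 and 15, was all VAPP58S with Repo-Gal4, a driver that is active in glia: the driver alone (VAPP58SRepo), and the driver with kay knockdown (VAPP58SRepo_KayKD), with wild-type kay overexpression (VAPP58SRepo_KayWT) or with KaySCR overexpression (VAPP58SRepo_KaySCR). kay encodes the fly Fos protein, a transcription factor subunit of AP-1, and the labels do not describe the KaySCR construct. Each of the 22 groups had 4 libraries. The P58S change is thus carried by the driver control as well, and no WT head was part of the second set. The labels give neither the background strain nor the alleles or transgenes beyond these names, and they do not say whether replicates came from separate animals or cultures, so the spread behind each p-value is that between these libraries and may be technical.

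The libraries held 2.48 to 16.5 M (mega) reads on genes in the WT and P58S male heads, 1.21 to 15 M in the second male set, 0.201 to 6.82 M in female heads and 0.937 to 9.46 M in female guts. The median member was thus covered by 34.5 to 244, 16 to 229, 0 to 92 and 16.5 to 192 reads per library in these 4 sets. In female heads, 2 WT day 5 libraries had 0.201 and 0.386 M reads, and 43 and 31 of the 70 members were at 0 there, where 3 reads would be 15 and 7.77 CPM (reads of a gene per 1 M reads on genes). Among male libraries, P58S day 5 replicate 3 was the lowest of its group for 35 of 72 members, and WT day 20 replicate 4 for 38. KayWT day 5 replicate 3 and driver day 5 replicate 3 were lowest for 34 each, and no other male library for more than 30. Vap33, the fly VAP gene, did not pass the test between P58S and WT male heads (log2 difference 0.16, 0.14 and 0.22, SE 0.065, at days 5, 15 and 20). In heads labelled KayKD, kay itself was at a log2 difference of −0.06 (SE 0.12) from the driver at day 5 and −0.05 (SE 0.11) at day 15, so whole-head counts show no lower kay, and the arm is described by its label. The overexpression arms had log2 differences in kay of 0.14 (KayWT) and 0.49 (KaySCR, adjusted p = 0.014) at day 5, all from edgeR's quasi-likelihood test.

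The members are spread over all major chromosome arms, with 12 on 2L, 12 on 2R, 17 on 3L, 21 on 3R and 11 on X of the dm6 assembly. Many lie close against other genes: 42 of the 73 (57.5%) overlap a gene on the opposite strand, against 40.5% of 13915 protein-coding genes, and 3 overlap a gene on the same strand. For 42 members the 3′ end, from which these libraries are primed, lies inside another gene. Since the sources used here do not say whether reads were counted by strand, reads from such a pair cannot be told apart, and the values of such a partner are given beside each call. mRpL53, on 2R, overlaps AGO1 on the other strand and CG33155 on its own.

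Members were expressed at middling levels in heads. The mean level over the 24 WT and P58S male heads ran from 4.79 to 69 CPM, with a median of 15 CPM over members against 16.1 CPM over all 9741 genes tested. Large and small subunit genes had like medians, 14.7 and 15.2 CPM. Because 3′ libraries give about 1 read per transcript, these levels do not grow with gene length and can be compared between genes, apart from differences in how well each 3′ end is primed and mapped.

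mRpL33 was the member with the highest level in every set. It encodes a small protein of the large subunit with a bacterial counterpart and lies at X:4321764-4322231 (FBgn0040907), with no overlapping gene. Its level was 69.0 ± 9.64 CPM (SD, n = 24) in WT and P58S male heads, 72.1 ± 10.1 CPM (n = 32) in the second male set and 75.5 ± 13.4 CPM (n = 16) in female guts. In no comparison of WT and P58S male heads did it differ by more than 0.27 on the log2 scale, and it passed no test.

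mRpS9, which encodes a small subunit protein of a universally conserved ribosomal family, came next in heads, with 47.4 ± 8.53 CPM in WT and P58S male heads, 53.1 ± 11.4 CPM in the second male set and 41.1 ± 15.6 CPM in female heads. The third place was held by mRpL28 in WT and P58S male heads (42.3 ± 6.49 CPM) and in female heads (40.2 ± 18.1 CPM), and by mRpS5 in the second male set (43.5 ± 16.2 CPM). In WT and P58S male heads mRpS9 and mRpL28 differed by less than 1 SD, and mRpS7 followed at 37.8 CPM. At the other end stood mRpS14 (4.79 ± 1.82 CPM), mRpL32 (5.69 ± 1.87 CPM) and mRpS2 (7.06 ± 2.41 CPM) in WT and P58S male heads. mRpS14 and mRpL32 were also the lowest in the second male set (4.48 and 6.11 CPM), followed by mRpS23 (6.55 CPM). Subunits of 1 ribosome thus differed 14.4-fold in transcript level in WT and P58S male heads and 16.1-fold in the second male set.

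The order of the members was close in both male sets, with a Spearman correlation over members of 0.95, and less close between male heads and female heads (0.65) or guts (0.66). These are correlations across genes, which are not independent replicates. Male and female libraries were made with different kits, so sex and kit cannot be told apart, and the part of read depth was not tested. The lowest members in female heads were mRpL51 (5.57 CPM), mRpL48 (5.58 CPM) and mRpL50 (5.98 CPM). In female guts they were mRpS23 (8.44 CPM), mRpL48 (8.76 CPM), mRpL37 and mRpL41 (both 11.5 CPM). Over all libraries of a set, the spread of log2(CPM + 1) was widest for mRpS25 in WT and P58S male heads, mRpL39 in the second male set, mRpL22 in female heads and mRpS10 in female guts. In those sets mRpL39, mRpL22 and mRpS10 were at 0 in 1, 3 and 1 libraries. The lowest value of mRpS25 was 8.38 CPM, beside a mean of 36.1 CPM.

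Female guts held a larger share of reads on mitochondrial ribosomal protein genes than heads. The members summed to 1221 to 2026 CPM per gut library and to 934 to 1280 CPM per female head library, and the ranges overlap only between the lowest guts and the highest heads. The means were higher in gut for 61 of 70 members, with a median log2 difference of 0.60. In the guts, 65 of 70 members were above the median of all genes tested (12.5 CPM), against 27 of 70 in female heads (15.8 CPM). Both tables were normalized separately and tissue was not replicated within one table, so no test was made, and in whole tissue a greater share of cells rich in these RNAs and more of the RNA per cell cannot be told apart. Enterocyte marker genes summed to 66872 to 95109 CPM in guts and 153 to 3856 CPM in female heads, and yolk and ovary markers to 2389 to 12067 and 54604 to 119986 CPM; their part in the difference was not tested.

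The gut excess was uneven among members. mRpL51 had a mean of 19.3 CPM in guts and 5.57 CPM in heads, a log2 ratio of 1.79, and mRpS6 had 29.1 and 10 CPM, a ratio of 1.54. mRpS24 (1.36) and mRpL34 (1.34) followed. mRpS9 was level in both, at 41 and 41.1 CPM, and mRpL55 was at 21.1 CPM in guts and 23.5 CPM in heads. The head means include the shallow WT day 5 libraries and have a wide spread. The SD in heads was 4.69 CPM for mRpL51, which was at 0 in 4 of 16 libraries, and 15.2 CPM for mRpL55. mRpL12, which encodes the stalk protein of the large subunit, followed mRpS7 (48.7 CPM) in guts at 42.6 CPM.

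**Figure D1:**
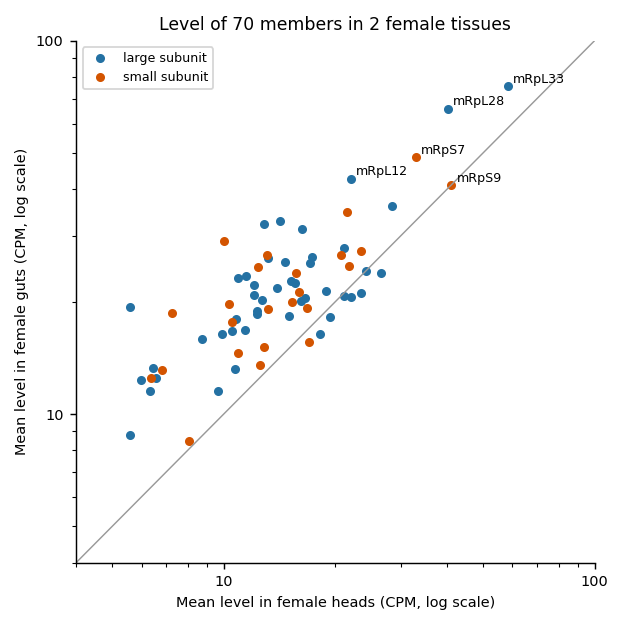
Each point is 1 of 70 members, placed by its mean level over 16 female head libraries (x axis, CPM, log scale) and 16 female gut libraries (y axis, CPM, log scale). Blue points are large subunit genes and orange points small subunit genes, both by symbol, and the line marks equal levels. Of the 70 points, 61 lie above the line, while mRpS9 lies on it at 41.1 and 41 CPM.

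Within one tissue the summed level of the members moved little. In WT male heads the sum was 1276, 1281, 1255 and 1195 CPM at day 5, 1239, 1212, 1299 and 1270 CPM at day 15, and 1324, 1364, 1334 and 1152 CPM at day 20. In P58S male heads it was 1242, 1254, 1088 and 1332 CPM, then 1315, 1271, 1280 and 1174 CPM, then 1253, 1213, 1296 and 1306 CPM. The ranges of all 6 groups overlap. In the driver heads of the second set the sum was 1367, 1405, 1245 and 1328 CPM at day 5 and 1250, 1203, 1187 and 1203 CPM at day 15. In heads labelled KayKD it was 1141, 1133, 1178 and 1242 CPM at day 5 and 1076, 1096, 1088 and 975 CPM at day 15. The KayKD libraries were all below the driver libraries of the same age, at day 5 narrowly, with 1242 CPM in the highest KayKD and 1245 CPM in the lowest driver library. Over the 71 members that female tables also hold, which leaves out mRpS5 and mRpS34, the groups overlapped at day 5 (1071 to 1182 against 1172 to 1318 CPM) and stayed apart at day 15 (936 to 1043 against 1127 to 1173 CPM). Photoreceptor markers summed to 23208 to 39881 CPM in KayKD and 19963 to 22582 CPM in driver heads at day 15 (ninaE, a rhodopsin gene, log2 difference 1.10, SE 0.18, adjusted p = 0.000493), and their part in the lower sum was not tested.

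**Figure D2:**
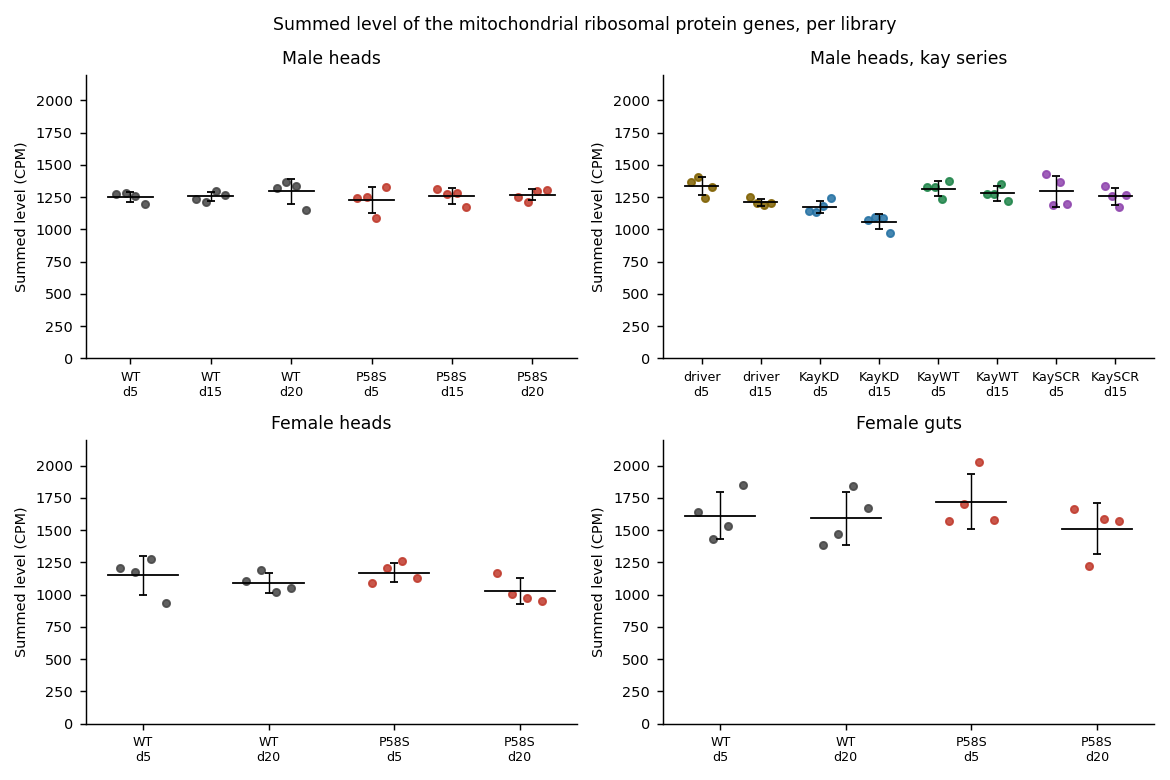
Summed level of the member genes (y axis, CPM, from 0) in each of the 88 libraries, by genotype and day (x axis), for WT and P58S male heads, the second male set, female heads and female guts; points are libraries, the long line is the mean of 4 and the bar is 1 SD. Male sums cover 73 genes and female sums 71. Guts sit at 1221 to 2026 CPM and female heads at 934 to 1280 CPM, and KayKD at day 15 (975 to 1096 CPM) is the lowest group of the second male set.

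P58S and WT male heads, compared at each age to ask what the VAP change does, differed in almost none of the members. By edgeR's quasi-likelihood test, with p-values adjusted over all genes by the Benjamini-Hochberg method and called under 0.05, 0 of 72 members passed at day 5, where 1.96% of all genes did. At an unadjusted p under 0.05, 3 members were higher and 4 lower, and DESeq2 also called 0. At day 15, 0 of 72 members passed against 1.02% of all genes (unadjusted, 1 higher and 1 lower; 0 by DESeq2). At day 20, 1 of 72 members (1.39%) was called, higher, against 1.76% of all genes, or 0.862% higher. The median difference over members was −0.04, 0.01 and −0.00 on the log2 scale at the 3 ages, beside medians of −0.00 over all genes. The 95% interval of the difference lay within 2-fold either way for 68, 70 and 67 of the 72 members.

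The single call was mRpL4, which encodes a large subunit protein with a bacterial counterpart (FBgn0001995, 2L:16328059-16329132, minus strand). At day 20 it had 14.8, 15.7, 17.5 and 17.0 CPM in P58S and 9.02, 11.4, 11.6 and 7.29 CPM in WT heads. The groups did not overlap, and mRpL4 was higher in P58S by 0.74 on the log2 scale (SE 0.19, adjusted p = 0.0419). The call was lost when any one of the 8 libraries was left out (adjusted p up to 0.13). At day 15 mRpL4 had 13.1, 14.5, 13.8 and 19.0 CPM in P58S and 16.9, 8.77, 13.9 and 15.3 CPM in WT, and the groups overlapped. Its opposite-strand neighbour CG4278 had a mean of 9.27 CPM and a log2 difference of 0.08 (adjusted p = 0.957) at day 20.

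At the ages with no call, the member with the lowest p was mRpL39 at day 5 and mRpL32 at day 15. mRpL39, whose product is found in mitochondrial and not bacterial ribosomes, had 15.4, 14.7, 8.23 and 17.9 CPM in P58S and 7.83, 11.6, 7.24 and 9.13 CPM in WT at day 5 (log2 difference 0.61, SE 0.24, adjusted p = 0.18). The groups overlapped through replicate 3 of P58S. mRpL32 had 6.7, 10.4, 7.55 and 6.87 CPM in P58S and 4.97, 5.52, 4.53 and 4.04 CPM in WT at day 15 (0.75, SE 0.3, adjusted p = 0.4); these groups did not overlap, at levels of a few CPM. No member passed the test of whether its P58S difference depended on age: 0 of 72 were called at day 15 against day 5 (0.103% of all genes passed; unadjusted, 1 higher and 0 lower) or at day 20 against day 5 (0.205%; 2 and 0), and DESeq2 called 0 in both. The 95% interval of this change lay within 2-fold for 54 and 51 of the 72 members.

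**Figure D3:**
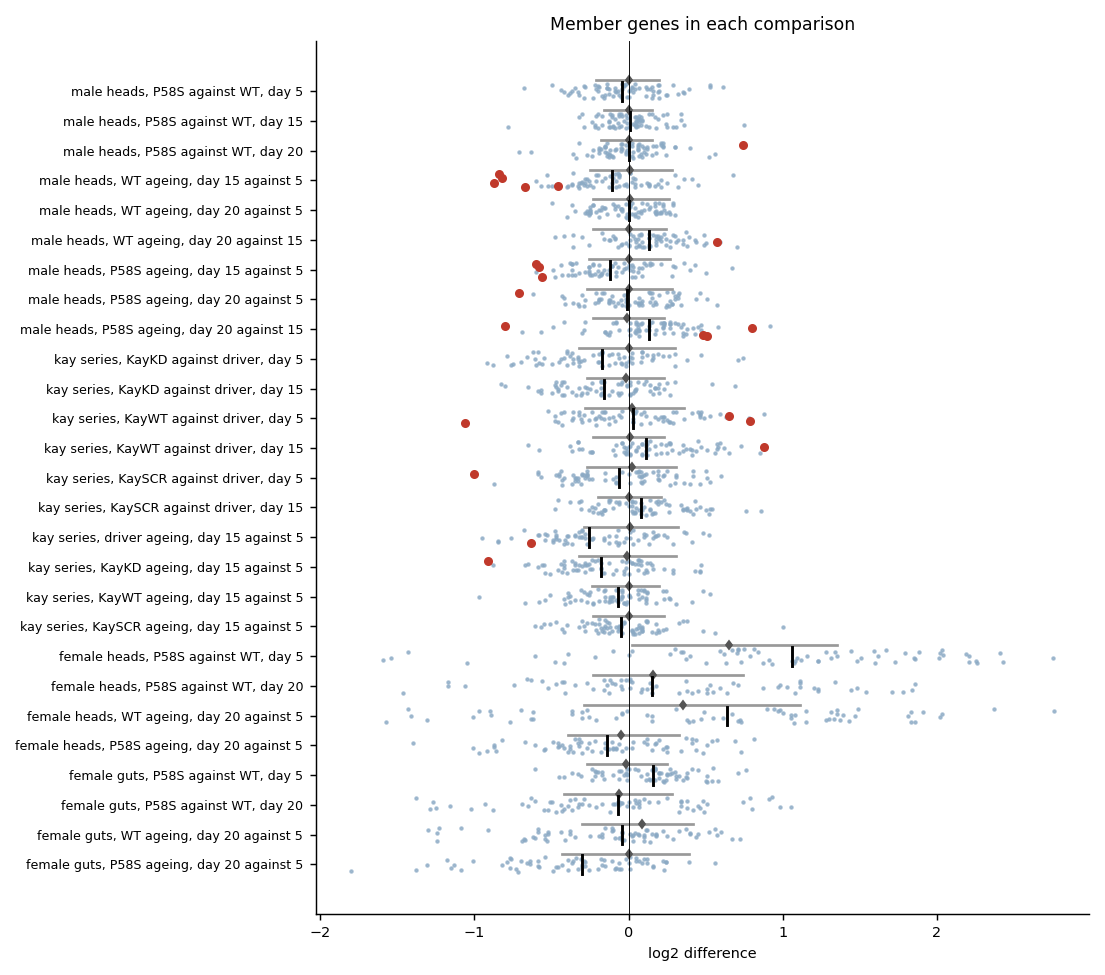
log2 difference of every member (x axis) in each comparison within male heads, female heads and female guts, age interactions left out (y axis); small blue points are members that were not called, red points those called at an adjusted p under 0.05. The black bar is the member median; the grey diamond and line are the median and the middle 50% of all genes tested. Red points occur in male heads only, and the day 15 against day 5 clouds of WT, P58S, driver and KayKD heads lie to the left, with medians of −0.11, −0.12, −0.26 and −0.18.

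A few members differed between ages. Between day 5 and day 15, mRpS9, mRpS28 and mRpL11 fell in WT heads and in P58S heads, and mRpL38 and mRpL55 passed in WT heads only, a difference between genotypes that the interaction test did not call. In WT heads 5 of 72 members were called, all lower (6.94%), against 12.4% of all genes in either direction and 7.3% lower. In P58S heads 3 of 72 were called, all lower (4.17%), against 13.6% of all genes and 7.57% lower. Thus members were called no more often than genes at large. The member median was −0.11 in WT and −0.12 in P58S, against 0.01 and −0.00 over all genes, and 49 and 46 of 72 members had a negative sign.

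mRpS9 (FBgn0037529, 3R:7889277-7902667, minus strand) had the lowest adjusted p of the members. In WT heads it had 53.3, 68.3, 54.4 and 48.3 CPM at day 5 and 37.0, 35.7, 38.1 and 33.1 CPM at day 15. All day 15 libraries were below all day 5 libraries. mRpS9 fell by 0.82 on the log2 scale (SE 0.12, adjusted p = 7.43e-05), and stayed called under all 12 alternatives, with differences from −0.89 to −0.69.

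In P58S heads mRpS9 had 54.3, 54.7, 47.9 and 56.8 CPM at day 5 and 34.6, 46.6, 38.3 and 41.6 CPM at day 15. Here too the groups did not overlap, and it fell by 0.56 (SE 0.12, adjusted p = 0.00297), kept in all 12 alternatives. The difference between the genotypes' falls was 0.27 (SE 0.17, adjusted p = 0.747). At day 20 mRpS9 was back at 55.6, 45.9, 46.3 and 53.6 CPM in WT heads and 52.8, 48.9, 45.6 and 47.0 CPM in P58S heads.

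mRpS9 shares its locus with wtrw, which encodes an ion channel of the TRP family and overlaps it, and its 3′ end lies inside ArgRS-m, the mitochondrial arginyl-tRNA synthetase gene. wtrw, at a mean of 118 CPM, had log2 differences between day 15 and day 5 of −0.49 in WT (SE 0.18, adjusted p = 0.0683) and −0.73 in P58S (SE 0.18, adjusted p = 0.00606). It had 0.53 (SE 0.18, adjusted p = 0.0758) from day 15 to day 20 in WT. In these 3 comparisons the neighbour had the same signs as mRpS9, and whether reads of wtrw enter the mRpS9 count was not tested. ArgRS-m had a mean of 2.45 CPM, and its differences at these steps were 0.42, −0.32 and −1.23 (adjusted p = 0.628, 0.686 and 0.17).

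mRpS28, a small subunit gene on 2R (FBgn0034361), had 23.1, 16.4, 25.8 and 19.9 CPM at day 5 and 11.0, 14.6, 13.9 and 14.9 CPM at day 15 in WT heads. The groups did not overlap, and it fell by 0.84 (SE 0.18, adjusted p = 0.00254), kept in all 12 alternatives. In P58S heads it had 22.9, 21.9, 22.6 and 25.2 CPM and then 20.4, 17.3, 18.7 and 12.5 CPM, again without overlap, and fell by 0.60 (SE 0.17, adjusted p = 0.0186). That call was lost without P58S day 15 replicate 4 (adjusted p = 0.0682). Its overlapping neighbour CG10927 was at 1.01 CPM, with differences of 0.83 in WT and −0.01 in P58S (adjusted p = 0.492 and 0.993).

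mRpL11 encodes the protein at the base of the stalk of the large subunit, where translation factors bind (FBgn0038234, 3R:14511838-14512691, plus strand). It had 16.0, 15.7, 13.1 and 19.5 CPM at day 5 and 12.7, 12.0, 9.74 and 11.7 CPM at day 15 in WT heads. The groups were apart by less than 1 CPM, and it fell by 0.67 (SE 0.18, adjusted p = 0.0122), a call lost without WT day 5 replicate 4 or WT day 15 replicate 3 (adjusted p = 0.0538 and 0.0704). In P58S heads it had 15.5, 15.8, 22.8 and 19.8 CPM and then 14.5, 11.0, 13.7 and 15.3 CPM, and fell by 0.58 (SE 0.17, adjusted p = 0.0201). These groups were nearer still, and 3 of the leave-one-out fits lost the call, among them that without P58S day 5 replicate 3 (adjusted p = 0.0546). CG8461, on the other strand, had 6.96 CPM and log2 differences of −0.16 and 0.14 (adjusted p = 0.804 for both).

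The remaining calls were in WT heads. mRpL38, whose product belongs to the mitochondrion-specific proteins of the large subunit (FBgn0030552, X:14226289-14227949), had 27.2, 31.3, 23.5 and 23.3 CPM at day 5 and 18.8, 14.0, 13.1 and 20.2 CPM at day 15. It fell by 0.87 (SE 0.24, adjusted p = 0.0169) with no overlap, and the call was lost without WT day 5 replicate 2 or WT day 15 replicate 3. mRpL55, another mitochondrion-specific large subunit gene (FBgn0038678, 3R:19094394-19094905), fell by 0.46 (SE 0.14, adjusted p = 0.0328). Its groups overlapped, with 19.8, 25.3, 25.2 and 25.2 CPM at day 5 and 16.0, 18.8, 22.0 and 24.2 CPM at day 15, and the call held in only 5 of 12 alternatives.

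A single library weighs on the P58S count. In P58S day 5 replicate 3, mRpL38 had 9.65 CPM against 27.4 to 31.9 CPM in the other libraries of the group, mRpL43 had 7.75 CPM, and mRpS25, which encodes a mitochondrion-specific protein of the small subunit, had 8.38 CPM against 49.0, 36.6 and 40.2 CPM. Without this library 9 members were called lower at day 15 than at day 5, in place of 3, 2 of them shared, when 17.5% of all genes were called. Without P58S day 5 replicate 1 there were 5 calls. In WT heads the count was 3 without WT day 5 replicate 4 or WT day 15 replicate 3 and at most 6. Muscle marker genes overlapped between day 5 and day 15, at 3543 to 3881 and 3492 to 4504 CPM in WT and 3668 to 4467 and 3849 to 4035 CPM in P58S heads. Photoreceptor markers stood apart in WT heads (20544 to 23248 and 26783 to 34436 CPM) and overlapped in P58S heads (25447 to 34074 and 27675 to 32785 CPM). Neuronal markers stood apart in P58S heads (4952 to 5885 and 4417 to 4694 CPM) and overlapped in WT heads (4288 to 4858 and 4340 to 4761 CPM). The part of cell composition in the members' values was not tested.

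At day 20 almost no member was called against day 5. Mean summed levels at days 5, 15 and 20 were 1252, 1255 and 1294 CPM in WT heads. In P58S heads they were 1229, 1260 and 1267 CPM. Against day 5, 0 of 72 members were called in WT heads (10.6% of all genes were; unadjusted, 0 higher and 1 lower; 0 by DESeq2), and 1 of 72 in P58S heads, mRpS5, lower (16% of all genes, or 8.81% lower). The member medians were −0.00 and −0.01. In WT heads the lowest p belonged to mRpL43, whose product is mitochondrion-specific, with a log2 difference of −0.50 (SE 0.23, adjusted p = 0.181).

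From day 15 to day 20, a comparison added after the data had been seen and sharing its day 15 libraries with the one above, 1 of 72 members rose in WT heads, against 6.16% of all genes called, or 3.57% higher. It was mRpS9 (0.57, SE 0.13, adjusted p = 0.00675), and this call was kept in all 12 alternatives. mRpS28 was at 0.59 (SE 0.18, adjusted p = 0.0539). In P58S heads 4 of 72 (5.56%) were called, 3 higher and 1 lower, against 6.75% of all genes, or 3.77% higher and 2.99% lower. The member medians were 0.13 in both genotypes, and 53 and 55 of 72 members had a positive sign. The P58S count fell to 0 without P58S day 15 replicate 2 or P58S day 20 replicate 4.

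The P58S calls between day 15 and day 20 were 3 genes that rose and mRpS5. mRpL43 had 16.2, 11.6, 14.7 and 15.3 CPM at day 15 and 23.9, 19.2, 23.7 and 24.2 CPM at day 20. mRpL20, with a bacterial counterpart that binds early to the large ribosomal RNA, had 14.8, 15.1, 19.0 and 17.0 CPM and then 19.9, 20.1, 21.0 and 24.8 CPM. mRpS31, a mitochondrion-specific small subunit gene, had 12.6, 12.3, 15.0 and 12.2 CPM and then 18.5, 16.6, 13.9 and 18.2 CPM. Only the mRpS31 groups overlapped, and the increases were 0.80, 0.51 and 0.48 on the log2 scale. mRpL43 and mRpL20 were still called in 6 and 8 of 12 alternatives and mRpS31 in 1 of 12. The opposite-strand neighbour of mRpL43, sigmar, was at 21.9 CPM with a log2 difference of −0.29 (adjusted p = 0.358), and that of mRpS31, mib1, was at 14.2 CPM with −0.10 (adjusted p = 0.824).

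**Figure D4:**
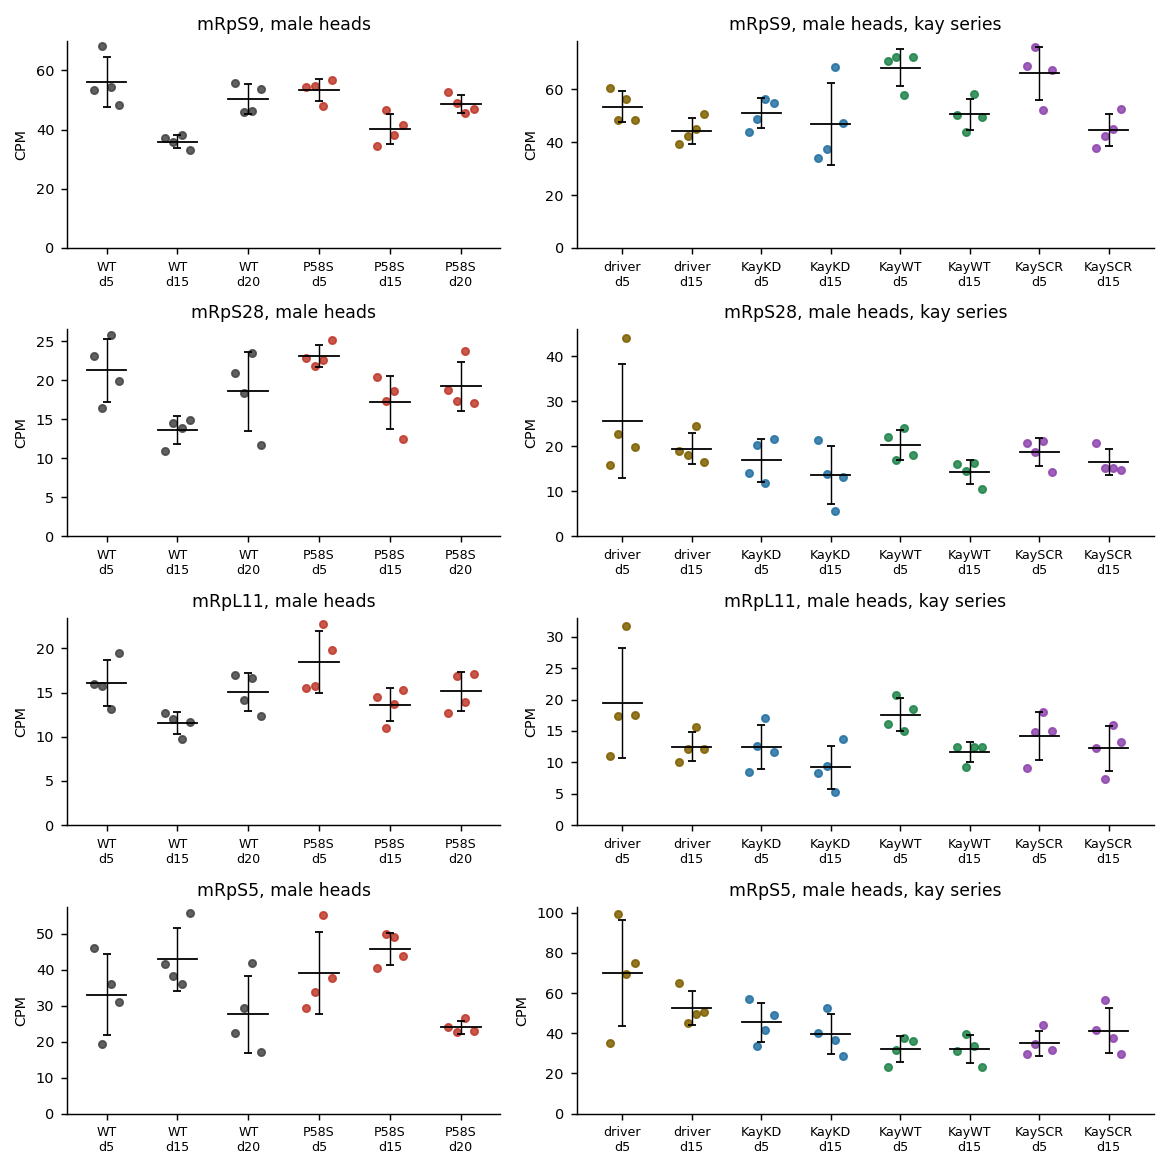
Level (y axis, CPM, from 0) of mRpS9, mRpS28, mRpL11 and mRpS5 in each male head library, with WT and P58S heads at left and the second male set at right (x axis, genotype and day; d5 is day 5); points are libraries, the long line is the mean of 4 and the bar is 1 SD. mRpS9 dips at day 15 in WT heads (33.1 to 38.1 CPM) and P58S heads (34.6 to 46.6 CPM) and is higher at days 5 and 20, and mRpS5 is highest in driver heads at day 5 (35.3 to 99.2 CPM).

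The second male set gave a repeat of the step from day 5 to day 15 in heads that all carry P58S and the glial driver. In driver heads 1 of 72 members was called, mRpL28, lower, against 6.07% of all genes, or 3.33% lower. In KayKD heads it was 1 of 72, mRpL2, lower, against 5.74%, or 2.86% lower. In KayWT heads 0 of 72 passed (1.59% of all genes; unadjusted, 0 higher and 6 lower; 0 by DESeq2), and in KaySCR heads 0 of 72 (1.67%; 1 higher and 2 lower; 1 by DESeq2). The member medians were −0.26 in driver, −0.18 in KayKD, −0.07 in KayWT and −0.05 in KaySCR heads, beside 0.01, −0.01, −0.00 and −0.00 over all genes. Negative signs were seen for 50, 47, 48 and 42 of the 72 members.

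mRpL28, which encodes a large subunit protein with a bacterial counterpart (FBgn0031660, 2L:4973976-4975316), had 39.4, 45.6, 50.3 and 53.5 CPM in driver heads at day 5 and 30.9, 27.9, 32.8 and 36.5 CPM at day 15. It fell by 0.63 (SE 0.19, adjusted p = 0.04) without overlap, in 4 of 12 alternatives, and its opposite-strand neighbour Gmd, at 17.8 CPM, had −0.14 (adjusted p = 0.811). mRpL2, from the family that borders the catalytic centre of bacterial ribosomes (FBgn0036135, 3L:11120847-11122041), had 27.9, 20.4, 18.3 and 12.4 CPM in KayKD heads at day 5 and 7.62, 12.1, 12.0 and 9.91 CPM at day 15. It fell by 0.91 (SE 0.26, adjusted p = 0.0316), in 7 of 12 alternatives, with the nearest libraries 12.4 and 12.1 CPM. Its opposite-strand neighbour Ufd1-like, at 22.1 CPM, had 0.18 (adjusted p = 0.695). Muscle markers summed to 4077 to 4556 CPM in driver heads at day 5 and 3109 to 3265 CPM at day 15, with 6 of 7 genes lower, and their part in these differences was not tested. The counts with a library left out ran from 0 to 3 in driver heads and 0 to 1 in KayKD heads.

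The 3 genes that fell in both WT and P58S heads had negative differences in each arm of the second set, but none passed. mRpS9 had 60.5, 48.5, 56.5 and 48.6 CPM at day 5 and 39.3, 42.2, 45.1 and 50.8 CPM at day 15 in driver heads, where the groups overlapped (log2 difference −0.35, SE 0.18, adjusted p = 0.281). In KaySCR heads it had 69.0, 76.1, 52.1 and 67.2 CPM and then 38.0, 42.5, 45.2 and 52.6 CPM (−0.61, SE 0.18, adjusted p = 0.0674), with an overlap of 1 library. It was at −0.51 in KayWT and −0.08 in KayKD heads. The differences of mRpS28 were −0.45, −0.32, −0.58 and −0.21 in driver, KayKD, KayWT and KaySCR heads, and those of mRpL11 were −0.68, −0.37, −0.67 and −0.24. The interaction test of each arm's age step against the driver's called 0 of 72 members in KayKD (0.153% of all genes; unadjusted, 1 higher and 1 lower), KayWT (0.112%; 3 and 2) and KaySCR (0.0612%; 3 and 0), with 0 by DESeq2 in each. Its 95% interval lay within 2-fold for 21, 25 and 21 members.

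The kay arms were compared with the driver at each age to ask what glial kay does in P58S heads; all 3 share the same driver libraries, so their values are not independent. For the arm labelled KayKD, 0 of 72 members passed at day 5, against 3.58% of all genes, although 2 were higher and 11 lower at an unadjusted p under 0.05 and DESeq2 called 1, lower. At day 15, 0 of 72 passed (1.25% of all genes; unadjusted, 2 higher and 2 lower; 0 by DESeq2). The member median was −0.17 at day 5 and −0.16 at day 15, against −0.00 and −0.02 over all genes, and 50 and 47 of 72 members had a negative sign. With other scalings the medians were from −0.19 to −0.17 and from −0.16 to −0.15. The 95% interval lay within 2-fold for 45 and 55 of the 72 members, so differences of the size of the median could not be resolved for single genes.

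The member with the lowest p in KayKD heads at day 5 was mRpL34, a large subunit gene with a bacterial counterpart. It had 10.1, 11.7, 10.2 and 19.9 CPM in KayKD and 23.4, 17.9, 25.5 and 27.4 CPM in driver heads (log2 difference −0.92, SE 0.29, adjusted p = 0.072). At day 15 it was mRpS10, from a family of the small subunit shared with bacteria, with 5.55, 8.64, 9.02 and 7.06 CPM in KayKD and 13.0, 16.8, 18.8 and 11.0 CPM in driver heads (−0.83, SE 0.25, adjusted p = 0.0905). Replicate 4 of KayKD made the mRpL34 groups overlap, whereas the mRpS10 groups did not. Muscle markers summed to 3420 to 4017 CPM in KayKD and 4077 to 4556 CPM in driver heads at day 5, and their part was not tested.

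With KayWT, 3 of 72 members (4.17%) were called at day 5, mRpL55 and mRpL42 higher and mRpS5 lower, against 5.59% of all genes, or 3.01% higher and 2.58% lower. mRpL55 had 36.8, 30.5, 36.3 and 33.5 CPM in KayWT and 27.1, 22.0, 19.9 and 21.6 CPM in driver heads, without overlap (log2 difference 0.65, SE 0.16, adjusted p = 0.014). mRpL42, a mitochondrion-specific large subunit gene on 2R (FBgn0033480), had 37.7, 26.5, 22.8 and 29.0 CPM against 23.1, 15.5, 11.2 and 19.3 CPM (0.79, SE 0.21, adjusted p = 0.0203). Its groups overlapped, with 22.8 CPM in the lowest KayWT and 23.1 CPM in the highest driver library. Its opposite-strand neighbour Cdc2rk, at 8 CPM, had a difference of −0.65 (adjusted p = 0.382). All 3 calls were lost without driver day 5 replicate 2, and without driver day 5 replicate 1 there were 5. Neuronal markers summed to 4067 to 4969 CPM in KayWT and 5323 to 6857 CPM in driver heads at day 5 (Syt1, a synaptic vesicle gene, log2 difference −1.28, adjusted p = 3.77e-06), and muscle markers to 2930 to 3286 and 4077 to 4556 CPM. In KaySCR heads these lists summed to 4679 to 6382 and 3191 to 4069 CPM at day 5. The part of these differences in the members' calls was not tested.

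At day 15, 1 of 72 members rose with KayWT, against 1.48% of all genes called, or 0.909% higher. It was mRpL27, whose bacterial counterpart reaches toward the catalytic centre of the ribosome (FBgn0053002, 2L:4458595-4459638). It had 24.6, 16.2, 22.8 and 16.8 CPM in KayWT and 9.2, 16.7, 9.74 and 9.93 CPM in driver heads (0.88, SE 0.23, adjusted p = 0.0408). The groups overlapped through driver replicate 2, and the call held in 4 of 12 alternatives. In KaySCR heads mRpL27 had 16.4, 19.5, 22.3 and 22.7 CPM (0.86, SE 0.23, adjusted p = 0.0686). Otherwise, KaySCR heads gave 1 call of 72 at day 5, mRpS5, lower, against 2.6% of all genes, or 1.27% lower, and 0 of 72 at day 15 (0.868%; unadjusted, 3 higher and 0 lower; 1 by DESeq2).

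mRpS5 was called lower in 4 comparisons, more than any other member. It encodes a small subunit protein whose bacterial counterpart lies near the entry of the messenger RNA (FBgn0287187, 3L:24537236-24543534, plus strand, no overlapping gene). At day 5 it had 35.3, 99.2, 69.6 and 75.1 CPM in driver heads, 23.3, 31.8, 37.5 and 36.0 CPM in KayWT heads, 29.7, 34.7, 43.9 and 31.9 CPM in KaySCR heads and 56.9, 33.8, 41.8 and 48.9 CPM in KayKD heads. Driver replicate 1 lay among the values of the other arms, and the other driver libraries lay above all of them. mRpS5 was lower in KayWT by 1.06 (SE 0.23, adjusted p = 0.0048) and in KaySCR by 1.00 (SE 0.23, adjusted p = 0.0137); in KayKD the difference was −0.62 (SE 0.23, adjusted p = 0.141). Without driver day 5 replicate 2 the adjusted p was 0.0551 in KayWT and 0.118 in KaySCR, and without replicate 1 KaySCR had 3 calls. At day 15 the driver had 64.8, 45.3, 49.4 and 50.6 CPM, and the differences were −0.65 in KayWT (adjusted p = 0.216) and −0.31 in both KayKD and KaySCR.

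In P58S male heads mRpS5 had 29.3, 33.8, 55.4 and 37.7 CPM at day 5, 40.5, 49.9, 49.1 and 43.9 CPM at day 15 and 24.2, 22.7, 26.6 and 22.9 CPM at day 20. All day 20 libraries were below all earlier ones. mRpS5 fell from day 5 to day 20 by 0.71 (SE 0.22, adjusted p = 0.0276) and from day 15 to day 20 by 0.80 (SE 0.22, adjusted p = 0.0267). The first call was lost without P58S day 5 replicate 3 (adjusted p = 0.119). WT heads had 22.4, 29.5, 41.8 and 17.1 CPM at day 20, which overlap their day 15 values of 41.6, 38.3, 36.0 and 55.7 CPM (−0.48, adjusted p = 0.217). No female value exists for this gene in the tables used here.

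Female heads gave no call. By limma on log2(CPM + 1), 0 of 70 members passed between P58S and WT at day 5, where 0.0519% of all genes did, or at day 20 (0.0311%). At an unadjusted p under 0.05, 9 members were higher and 0 lower at day 5, and none at day 20, and edgeR on the reads recovered from the deposited values called 0 at both ages. The day 5 member median of 1.06 stands beside 0.65 over all genes and moved to −0.01 without the 2 WT libraries under 0.5 M reads. mRpL34, with the lowest p at day 5 (2.75, SE 0.90, adjusted p = 0.249), had 21.6, 0.0, 0.667 and 0.0 CPM in WT and 10.2, 17.1, 16.3 and 20.9 CPM in P58S heads; the WT libraries at 0 were the shallow ones. Without WT day 5 replicate 1, the deepest of that group, 2 members were called at day 5. The libraries then left in that group had 0.201, 1.5 and 0.386 M reads, and the part of depth in these calls was not tested.

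Ageing of female heads was equally unresolved. From day 5 to day 20, 0 of 70 members passed in WT heads (0.975% of all genes; unadjusted, 3 higher and 1 lower) and 0 in P58S heads (0.27%; none), and edgeR on recovered reads called 0 in both. In WT heads 3 were called without WT day 5 replicate 1, a fit that rests on the same shallow day 5 libraries. mRpL43 had the lowest p in WT heads (2.76, SE 0.94, adjusted p = 0.17). The age dependence of the P58S difference gave 0 calls (0% of all genes; unadjusted, 0 higher and 1 lower). With the interaction left out, the median 95% interval reached 2.16 to either side on the log2 scale in each female head comparison. It lay within 2-fold for 0 of 70 members, so differences of 2-fold were not resolved by this fit. The fit shares 1 spread per gene over all 16 libraries, the shallow WT day 5 ones included. Ageing of P58S heads, whose libraries had 3.1 to 6.82 M reads, was judged by that same spread. The part of the shallow libraries in this width was not tested.

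In female guts 0 of 70 members passed between P58S and WT at day 5 (0.133% of all genes; none at an unadjusted p under 0.05) and at day 20 (0.365%; 1 higher and 3 lower). For ageing, 0 passed in WT guts (0.21%; 0 higher and 2 lower) and in P58S guts (0.299%; 0 higher and 5 lower), and the interaction gave 0 (0% of all genes; 0 and 2). edgeR on recovered reads called 0 members in each of these. In P58S guts the member median from day 5 to day 20 was −0.30 against 0.00 over all genes, with 52 of 70 members negative (74.3%, against 49.9% of genes). Small subunit genes had a median of −0.61 and large subunit genes of −0.19. These medians include P58S day 20 replicate 3, which had 0.937 M reads. In that library 5 of 70 members were at 0, and 3 reads would be 3.2 CPM. The summed level overlapped, with 1573, 1705, 2026 and 1582 CPM at day 5 and 1662, 1221, 1590 and 1568 CPM at day 20. Over the same days yolk and ovary markers in P58S guts summed to 3565 to 12067 CPM at day 5 and 2389 to 5002 CPM at day 20, and their part was not tested.

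The gut members with the lowest p show the spread behind these counts. mRpS18C, one of the paralogues of a small subunit protein shared with bacteria, had 28.2, 30.3, 27.4 and 20.4 CPM in P58S guts at day 5 and 13.3, 11.3, 0.0 and 20.6 CPM at day 20 (−1.80, SE 0.66, adjusted p = 0.248). Its groups overlapped by 1 library at each age. mRpS22, a mitochondrion-specific small subunit gene, had 12.6, 26.3, 6.4 and 29.1 CPM in P58S and 34.4, 51.1, 30.1 and 35.2 CPM in WT guts at day 20 (−1.16, SE 0.39, adjusted p = 0.406), without overlap. mRpL49 had 21.0, 33.0, 32.9 and 23.0 CPM in WT guts at day 5 and 11.0, 6.15, 17.6 and 11.2 CPM at day 20 (−1.24, SE 0.38, adjusted p = 0.225), also without overlap. For single gut members the interval lay within 2-fold for 18 to 23 of 70, so these differences were not resolved. The 0.0 CPM of mRpS18C and the 6.4 CPM of mRpS22 are both from the shallow P58S day 20 replicate 3.

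Over all 34 comparisons and 2428 tests of members there were 22 calls, on 14 members, all in male heads. Of all genes, 0.0612% to 16% were called per comparison in male heads, and 0% to 0.975% in female heads and guts. The genes that work beside the mitochondrial ribosome were read from lists made with earlier results of these data known. Nuclear-encoded OXPHOS subunits, the partners of the proteins that this ribosome makes, were called as follows from day 5 to day 15. In WT heads 34 of 67 fell and none rose, and in P58S heads 24 fell and 1 rose, where 7.3% and 7.57% of all genes were called lower. In driver heads 48 of 68 fell and none rose, where 3.33% of all genes were called lower. Their medians were −0.35, −0.23 and −0.57, beside member medians of −0.11, −0.12 and −0.26. In KayKD heads at day 5, 21 of 68 OXPHOS genes fell and none rose, where 3.58% of all genes were called in either direction, with a median of −0.33 beside −0.17 for the members.

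Of 83 cytosolic ribosomal protein genes, 15 rose and 1 fell in WT heads from day 5 to day 15, with a median of 0.11, and 26 rose and 1 fell in P58S heads, with a median of 0.20. Over all genes, 12.4% and 13.6% were called in either direction, and the difference in call rates between lists was not tested. The median of the mitochondrial set thus lay between those of these lists in each male head ageing comparison with day 5. Of 8 factors of mitochondrial translation, only mEFTs passed in male ageing from day 5 to 15. It rose in P58S heads (0.61, SE 0.13, adjusted p = 0.00319), where 13.6% of all genes were called. Of 15 mitochondrial aminoacyl-tRNA synthetases only MetRS-m passed in male ageing from day 5 to 15 (fell by 0.75 in P58S, SE 0.21, adjusted p = 0.016). bonsai, which encodes a further protein of the small subunit under another kind of symbol, was lower in KaySCR heads at day 5 by 1.14 (SE 0.30, adjusted p = 0.0348).

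**Figure D5:**
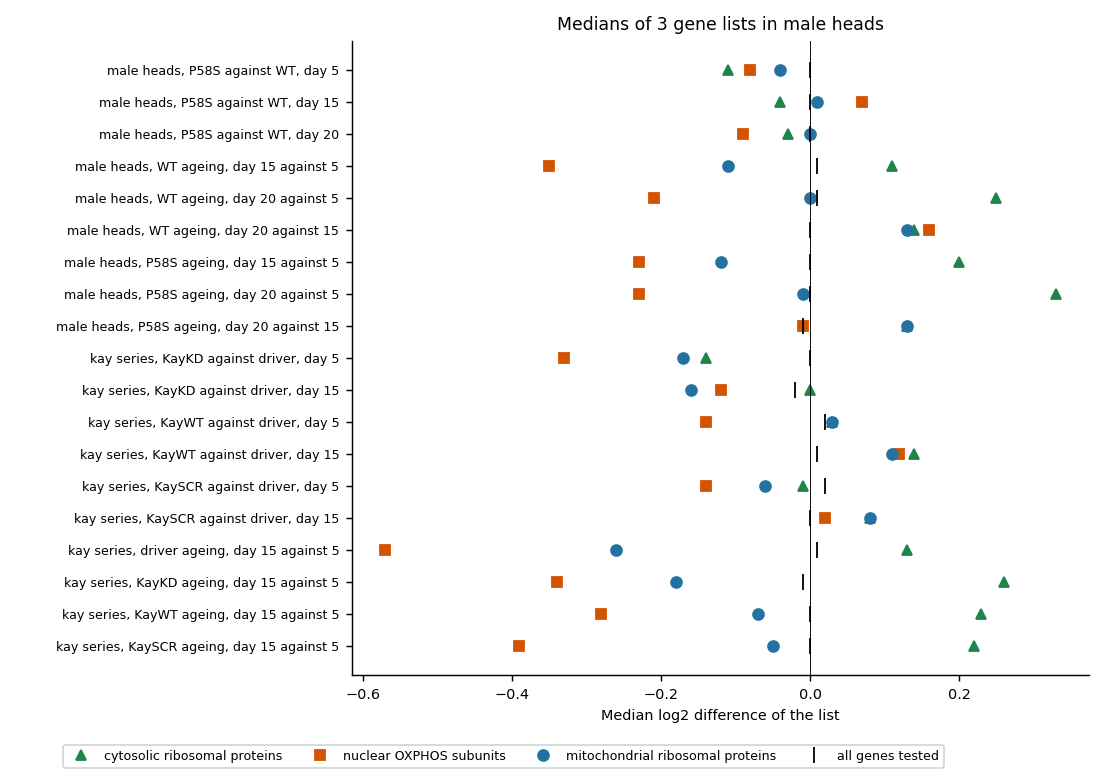
Median log2 difference (x axis) of mitochondrial ribosomal proteins (blue circles), nuclear OXPHOS subunits (orange squares) and cytosolic ribosomal proteins (green triangles) in each male head comparison (y axis), with a black tick for the median of all genes tested. In the comparisons of day 15 or 20 with day 5, the squares lie left of 0 (down to −0.57 in driver heads), the triangles right of 0 (up to 0.33) and the circles between them.

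Of 10 protein import genes tested, 2 fell from day 5 to day 15 in each genotype, Tom40 in both, Tom7 in WT and Tim17b in P58S heads. Of all genes, 12.4% in WT and 13.6% in P58S heads were called in either direction. Tom40, the channel of the outer membrane import complex, fell from day 5 to day 15 by 0.60 in WT (SE 0.13, adjusted p = 0.0023) and 0.75 in P58S heads (SE 0.13, adjusted p = 0.000251). From day 15 to day 20 it rose by 0.67 (adjusted p = 0.0021) and 0.62 (adjusted p = 0.00477). Tom7, a small subunit of that complex, fell by 0.56 in WT heads (SE 0.13, adjusted p = 0.00678) and then rose by 0.72 in WT and 0.50 in P58S heads. Both steps share the day 15 libraries.

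The measured levels of single members did not rise and fall closely together. Over the 24 WT and P58S male heads, the median correlation of a member with the mean of the other members was 0.22, from −0.40 to 0.71, beside 0.10 for 9669 other genes. The genes whose pattern was most like the mean of the members were CAH2 (0.85), RpL36A (0.84), EbpIII (0.83), CG11109 (0.83) and dgt2 (0.82). All libraries share 1 table and scaling, and these values are a description. The median member had 34.5 to 244 reads per library here, and the part of counting noise in the low correlations was not tested.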

How the data were processed

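RNA from whole heads and guts was sequenced from its 3′ ends, with a V2 3′ mRNA kit for males and QuantSeq for females, per the labels' protocols, and dm6 is the build in the submitters' processing notes. The sources used here name no aligner, counting tool or strand setting. The deposited male table holds raw counts for 23996 features, of which 17830 are genes; the others took 0.17% to 0.26% of reads and were left out. The deposited female tables are named CPM but hold log2 values, which were turned back into CPM and tested as log2(CPM + 1). Their steps gave whole reads for 100% of values under 1000 reads (within 0.1 read), so edgeR was also run on those reads.

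For male heads, edgeR 4.0.16 in R 4.3.3 (quasi-likelihood, TMM, filterByExpr) was fitted to the deposited counts, with 1 mean per group, over the 24 WT and P58S heads (9741 genes) and the 32 heads of the second set (9796 genes). Female values were tested with limma 3.58.1 (trend) on the 9640 genes of heads and 9036 of guts that reached 1 CPM in 4 or more libraries. A gene was called at a Benjamini-Hochberg adjusted p under 0.05 over all genes tested. Alternatives were DESeq2 1.42.0 (size factors, or its Wald test), no filter, a replicate block, a pseudocount of 0.25, median centring and leaving out each library. The test code was checked on simulated data. Intervals cover 95%.

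The members, the other gene lists and the tests were chosen with earlier results of these data known. Named members are, per comparison, up to 5 called in each direction or, with none called, that with the lowest p; the 3 highest and 3 lowest in level and the widest in spread per table; and those repeatedly called. Genes of other lists were named from at most 4 called per direction. Neighbouring genes come from the BDGP6 annotation. Replicate numbers did not pair libraries: correlations of same-numbered libraries' deviations ran from −0.40 to 0.30. Day 20 against day 15, the edgeR fit on recovered reads and the fits without shallow female libraries were added after the data had been seen. No sequences are printed, since none were at hand.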

Additional observations from a re-analysis of the deposited data

Results flagged for a closer look

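In groups of 4 libraries, the gap between the highest or lowest library and its nearest neighbour was compared with the range of the group. Of 130 groups tested (the summed level of the members in all 22 groups, and each called member in every group of its set), 9 had a library that stood apart, and chance flags about 1 in 20 groups. The summed level was 975 CPM in KayKD day 15 replicate 4, beside 1076, 1096 and 1088 CPM. mRpL43 had 7.75 CPM in P58S day 5 replicate 3, beside 19.3, 19.7 and 18.8 CPM, and 19.2 CPM in P58S day 20 replicate 2, beside 23.9, 23.7 and 24.2 CPM. mRpL55 had 25 CPM in P58S day 15 replicate 3 (21.5, 21.8 and 22 CPM in the others). It had 19.8 CPM in WT day 5 replicate 1 (25.2, 25.2 and 25.3 CPM) and 28.8 CPM in KaySCR day 15 replicate 4 (19.2, 20.1 and 20.6 CPM). mRpS31 had 15 CPM in P58S day 15 replicate 3, beside 12.2, 12.3 and 12.6 CPM. mRpL27 had 16.7 CPM in driver day 15 replicate 2, beside 9.2, 9.74 and 9.93 CPM, and that library is the one through which the mRpL27 groups of KayWT and driver overlapped. mRpL2 had 15.2 CPM in KayWT day 15 replicate 1, beside 14.4, 14.3 and 14.3 CPM.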

How the results depend on the processing

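Each count of called members was recomputed under other settings, and 141 of 156 counts were within 1.5 times the reported one, leave-one-out fits not included. The exceptions all lay in male heads and had small counts; the cause was not tested. With no filter on low counts, P58S against WT at day 20 went from 1 to 0, P58S day 20 against day 15 from 4 to 2, KayWT at day 15 from 1 to 0, and ageing of driver and of KayKD heads from 1 to 0. With the DESeq2 Wald test, WT day 20 against day 15 went from 1 to 3, KayKD at day 5 from 0 to 1, KayWT at day 5 from 3 to 5, KaySCR at day 15 from 0 to 1, driver ageing from 1 to 3 and KaySCR ageing from 0 to 1. Replicate numbers did not pair the libraries, and the replicate block took P58S against WT at day 20, KayWT at day 15 and driver ageing from 1 to 0 and WT day 20 against day 15 from 1 to 2; it moved no other count by over 1.5 times.

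Leaving out each library in turn kept 273 of 328 counts within 1.5 times. The counts were 0 throughout for P58S against WT at day 20. They ran from 3 to 6 (WT) and 2 to 9 (P58S) for day 15 against day 5, from 0 to 3 for P58S day 20 against day 5, and from 1 to 2 (WT) and 0 to 4 (P58S) for day 20 against day 15. In the second set they ran from 0 to 5 (KayWT) and 0 to 3 (KaySCR) at day 5, from 0 to 1 for KayKD at day 5 and for KayWT and KaySCR at day 15, from 0 to 3 for driver ageing, and from 0 to 1 for KayKD and KaySCR ageing. In female heads they ran from 0 to 2 for P58S against WT at day 5 and 0 to 3 for WT ageing. Of 264 values of called members under all alternatives, 180 stayed called, 84 did not and 0 changed sign. Age interactions left out, the median 95% interval reached 2.16 to either side on the log2 scale in female heads, 0.91 in guts and at most 0.62 in male heads; for the interactions it reached 3.06, 1.29 and at most 0.85. How far depth sets these widths was not tested.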

Other observations

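Myc, a transcription factor that drives ribosome production in flies and was listed among the regulators of mitochondrial gene expression, rose from day 5 to day 15 in WT, P58S and all 4 groups of the second male set. From day 5 to day 15 it rose by 0.78 on the log2 scale in WT heads (SE 0.11, adjusted p = 2.06e-05, edgeR's quasi-likelihood test), 0.61 in P58S heads (SE 0.11, adjusted p = 0.000422) and 0.59 in driver heads (SE 0.14, adjusted p = 0.00531). In KayKD, KayWT and KaySCR heads it rose by 1.03, 0.88 and 0.61. At day 20 it was still higher than at day 5, by 0.68 in WT and 0.71 in P58S heads. scu, which encodes a subunit of the enzyme that processes mitochondrial transfer RNA, rose from day 5 to day 20 by 0.40 (SE 0.1, adjusted p = 0.011) in WT and 0.49 (SE 0.1, adjusted p = 0.0019) in P58S heads. MTPAP, the mitochondrial poly(A) polymerase, rose by 1.59 (SE 0.36, adjusted p = 0.00619) with age in KayKD heads. Of the genes of the mitochondrial DNA itself, the messages that this ribosome translates, 5 of 13 rose from day 5 to day 15 and 1 fell in WT heads, and 7 rose and none fell in P58S heads, where 12.4% and 13.6% of all genes were called. From day 15 to day 20, 4 of the 13 fell and none rose in WT heads, and 5 fell and 1 rose in P58S heads. Of all genes, 6.16% and 6.75% were called there in either direction. mt:ND3 rose by 1.27 (SE 0.19, adjusted p = 5.22e-05) and then fell by 1.12 (SE 0.19, adjusted p = 0.000724) in WT heads.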
